A study of Danio rerio with 4 samples.

Results

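The cells described here were taken as endothelial cells (ECs) of the zebrafish ventricle with transcripts of at least 2 of frzb, bmp3, wnt9a and nrg1. They are called valve-type cells below, though 74 of them held few endothelial transcripts. All were picked from single-cell RNA sequencing counts by a rule on their own transcripts, counted as unique molecular identifiers (UMIs). A barcode had to hold at least 2500 UMIs from at least 600 genes, with at most 12% of UMIs from mitochondrial genes. It had to carry at least 1 UMI of the endothelial genes cdh5, kdrl, f8 and fabp11a, and at least 3 UMIs from at least 2 of the genes frzb, bmp3, wnt9a and nrg1. Barcodes with transcripts of valve interstitial cells (at least 3 UMIs of angptl7, rspo1 and abi3bpb), fibroblasts (at least 2 of dpt and fgl2b), cardiomyocytes (CMs; at least 3 of ttn.1, ttn.2 and myh7l) or cycling cells (at least 2 of top2a, mki67, aurkb and ccnb1) were left out. This left 509 cells among the 29665 barcodes of the series that passed the limits on UMIs, genes and mitochondrial share.

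The study followed the growth of the coronary vessels at 4 stages, named initiation (10 mm body length, 1.5 months of age), establishment (14 mm, 2 months), expansion (18 mm, 2.5 months) and maturation (28 mm, 8 months). All fish were wild type (WT) of the AB strain, and the labels name no transgene or treatment. Each stage is 1 library made from 1 pool of dissociated ventricles, of 25, 18, 12 and 5 ventricles in that order, so there is no replicate of a stage, and the labels give 1 batch for all of them. By stage, from the earliest to the latest, there were 87, 86, 207 and 129 valve-type cells.

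Heart valves are covered by a specialized endothelium that continues the endocardium, the inner lining of the chambers, and that is exposed to oscillating flow. During valve formation, some of these cells leave the lining and enter a hyaluronan-rich matrix, under control of BMP, Notch and Wnt signals and of the flow-responsive factor klf2a. frzb encodes a secreted protein that binds Wnt ligands, bmp3 an atypical BMP ligand, wnt9a a Wnt ligand and nrg1 neuregulin, a ligand of the ErbB receptors.

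The clause on the 4 genes reduced 18895 barcodes with an endothelial UMI to 841, and the exclusion clauses took these to 710, 640, 510 and 509 in the order given above. Among the 509 cells, 34 held exactly 3 UMIs of the 4 genes, 34 held 4, and 441 held 5 or more. Just outside the limit were 46 barcodes with 1 UMI from each of 2 genes and 290 with at least 3 UMIs from a single gene. The median sum of the 4 genes in a valve-type cell was 9, 12, 12 and 20 UMIs in the order of the stages.

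The label was first checked against endothelial markers that the rule did not use. The sum of 11 such genes, among them vwf, erg, pecam1, tie1 and egfl7, reached at least 2 UMIs per 10000 in 435 of the 509 cells and stayed below that in 74 cells. The 74 cells, which numbered 12, 15, 21 and 26 in the order of the stages, made up 14.5% of the valve-type cells. Most cells lay away from this limit, with 65 cells under 0.5 UMIs per 10000, 9 between 0.5 and 2, 25 between 2 and 10, and 410 above. The separation was less clear at maturation, where these classes held 20, 6, 12 and 91 cells. In a shallow cell 1 UMI of the 11 genes already reached the limit (2.09 per 10000 in a cell of 4785 UMIs). Most of the 74 passed the endothelial clause on very few UMIs, since 37 of the 38 cells with 1 UMI and all 13 cells with 2 UMIs were among them, against 24 of the 458 cells with 3 or more.

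The 74 cells carried the genes of the epicardium, the outer covering of the heart. The epicardial transcription factor tcf21 was detected in 82.4% of the 74 cells and in 3.68% of the 435, tbx18 in 83.8% and 5.52%, wt1b in 62.2% and 5.29%, and postnb, which encodes the matrix protein periostin, in 78.4% and 4.60%. gcga was detected in 54.1% and 4.83%. krt15, also on the list of epicardial markers, was common in both, at 97.3% and 88.5%. At least 5 UMIs of the whole list were held by 95.9% of the 74 cells and 72.9% of the 435. frzb itself was found in 91.9% of the 74 cells and 97.0% of the 435, and nrg1 in 62.2% and 43.4%, while wnt9a was found in only 6.76% and 46.9%. bmp3 was found in 47.3% of the 74 cells and 70.8% of the 435. The 74 cells thus held few of the endothelial transcripts that the label implies, and several results below are given with and without them. Other results include the 74 cells only, among them the levels of bmp3, wnt9a and nrg1 by stage. The counts of pathway genes that differed between maturation and initiation also include them. The 74 cells were 13.8%, 17.4%, 10.1% and 20.2% of valve-type cells in the order of the stages. Their part in those levels and counts was not tested. The limit of 2 pan-endothelial UMIs per 10000 was chosen after the data were seen.

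**Figure D1:**
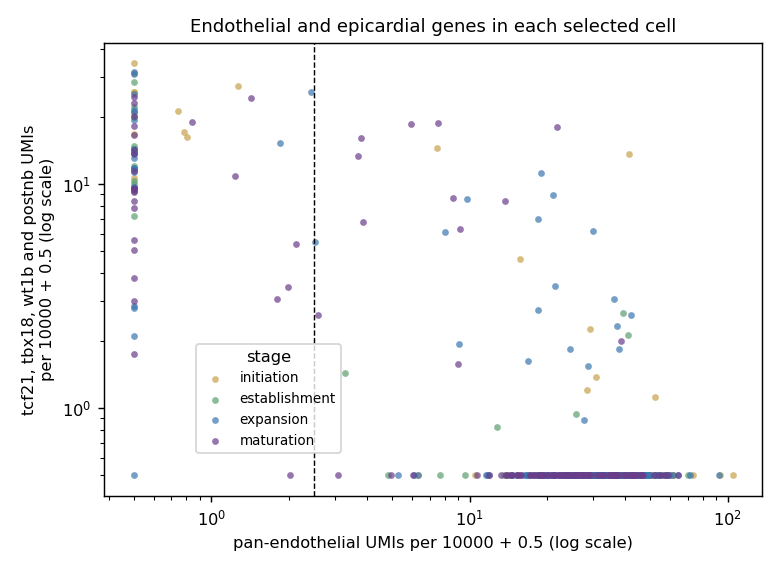
Each point is 1 of the 509 valve-type cells, colored by stage, with the UMIs of 11 pan-endothelial genes per 10000 on the horizontal axis and those of tcf21, tbx18, wt1b and postnb on the vertical axis, both on log scales after adding 0.5. The 74 cells left of the dashed line lie mostly high on the vertical axis, and most of the 435 cells right of it lie at the bottom.

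The 4 deposited tables held between 115624753 and 161798583 UMIs each. Valve-type cells were deeper than the 10964 other ECs, with a median of 7281 to 12921 UMIs per cell by stage against 4752 to 8353. A doublet score marked 33 of the 509 valve-type cells (6.48%) and 508 of the other ECs (4.63%), and these were kept. No cell barcode of a valve-type cell occurred in more than 1 library. Low-UMI barcodes, taken from below the cells in the ranking by UMIs, held on average 54.8, 87.8, 225 and 651 UMIs in the order of the stages, of which 0.000556 to 0.00267 were of frzb, bmp3, wnt9a and nrg1. Of cdh5, kdrl, f8 and fabp11a they held 0.0191, 0.0390, 0.113 and 0.148 UMIs. The endothelial clause asked for 1 such UMI, and 6, 4, 12 and 16 valve-type cells passed on exactly 1. Whether free RNA admitted any of these cells was not tested. Of the 6 macrophage markers, 5 were at 0 in valve-type cells, whereas red cell globins and CM transcripts were present and differed strongly between libraries.

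The share of valve-type cells among ECs was highest at initiation, whereas their share of all barcodes that passed the depth limits was lowest there. That second share was 1.31%, 1.49%, 1.90% and 2.04% in the order of the stages. Other ECs were barcodes with at least 3 UMIs from at least 2 of cdh5, kdrl, f8 and fabp11a that passed the same limits but not the clause on the 4 genes. At initiation 8.00% of ECs were valve-type cells (95% exact Clopper-Pearson interval 6.46 to 9.78). The share was 4.67% (3.76 to 5.74) at establishment, 3.63% (3.16 to 4.15) during expansion and 4.54% (3.81 to 5.37) by maturation. After thinning of each cell to 2500 UMIs, the shares were 3.42% (2.46 to 4.63), 2.08% (1.51 to 2.79), 2.51% (2.15 to 2.92) and 2.59% (2.08 to 3.18), and the intervals of initiation and of the later stages overlapped. The share at initiation was still the highest. All clauses on genes were read from the thinned counts, so other ECs numbered 12944 in place of 10964. Without the 74 cells the shares were 7.04%, 3.95%, 3.29% and 3.72% in the order of the stages. The endothelial clause was looser for valve-type cells than for other ECs. With 1 endothelial UMI enough for both, the shares among ECs were 6.55%, 3.98%, 3.39% and 4.04%. No test between stages was possible with 1 library each, and the intervals cover counting error only.

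**Figure D2:**
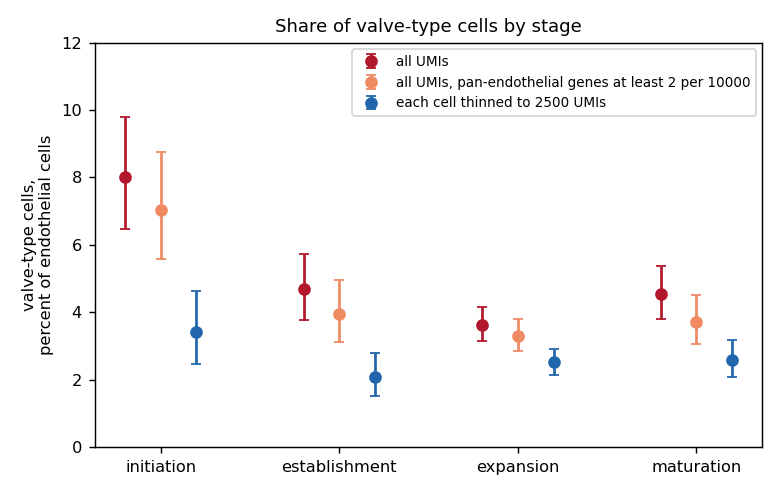
Valve-type cells as a percent of ECs at each stage, with all UMIs, with all UMIs and the limit on pan-endothelial genes, and after thinning to 2500 UMIs. Bars are 95% exact binomial intervals. With all UMIs the shares were 8.00%, 4.67%, 3.63% and 4.54% in the order of the stages, and after thinning 3.42%, 2.08%, 2.51% and 2.59%. The share was lower at every stage after thinning and stayed highest at initiation.

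The 4 genes that chose the cells are given as a description, without a test. Levels are CPM, the UMIs of a gene per 1000000 UMIs, summed over the cells of a library, in the order initiation, establishment, expansion and maturation here and throughout. frzb was at 453, 850, 1676 and 1963 CPM in valve-type cells, against 13.4, 13.9, 26.3 and 19.8 CPM in other ECs. bmp3 was at 142, 216, 182 and 337 CPM in valve-type cells, against 4.94, 2.49, 0.504 and 0.899 CPM in other ECs. frzb was thus the most abundant of the 4 genes at every stage, and its level increased with each stage. In the 435 cells it was at 433, 1005, 1770 and 2409 CPM, and in the 74 cells at 541, 338, 779 and 375 CPM, so the increase lay in the 435. The rule set a floor of 3 UMIs whatever the depth of a cell. Median depth was 12921, 10401.5, 7281 and 8963 UMIs by stage, and the part of the rule and of depth in these levels was not tested. wnt9a was at 122, 32.3, 147 and 168 CPM in valve-type cells, against 10.5, 1.83, 4.28 and 2.64 CPM in other ECs. nrg1 was at 192, 182, 384 and 248 CPM in valve-type cells, against 3.29, 2.29, 2.96 and 4.50 CPM in other ECs. wnt9a was lowest at establishment.

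Few cells carried all 4 genes. frzb was detected in 96.3% of the 509 cells, bmp3 in 67.4%, nrg1 in 46.2% and wnt9a in 41.1%, which dropped to 78.1%, 37.8%, 27.1% and 20.5% after thinning to 2500 UMIs. In CMs the same shares were 3.04%, 1.84%, 1.95% and 1.06% before thinning. Among other ECs, which had not met the clause on the 4 genes, frzb was detected in 3.58% and bmp3 in 0.757%. frzb with bmp3 alone was the most frequent combination, in 135 cells, followed by frzb with nrg1 in 90 cells and frzb with bmp3 and wnt9a in 79 cells. All 4 genes were found together in 47 cells, each of them among the 435, whereas 34 of the 90 cells with frzb and nrg1 alone were among the 74.

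Detection of the 4 genes also went together when ECs were taken with no demand on them. Among all ECs with at least 3 UMIs from at least 2 genes of the endothelial clause, the exclusion clauses and the pan-endothelial limit, bmp3 was detected in 302 of 791 cells with frzb (38.2%) and in 86 of 10492 cells without it (0.82%). nrg1 was detected in 186 of the cells with frzb (23.5%) and in 111 of the cells without it (1.06%), and wnt9a in 202 (25.5%) and 245 (2.34%). Cells with frzb held a median of 11013, 8218.5, 6415.5 and 7878.5 UMIs in the order of the stages, and those without it 8305, 6556.5, 4737 and 5349. The part of depth in these shares was not tested. The 4 genes were chosen with earlier results of these data known, so their joint detection is no independent support for the label.

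**Figure D3:**
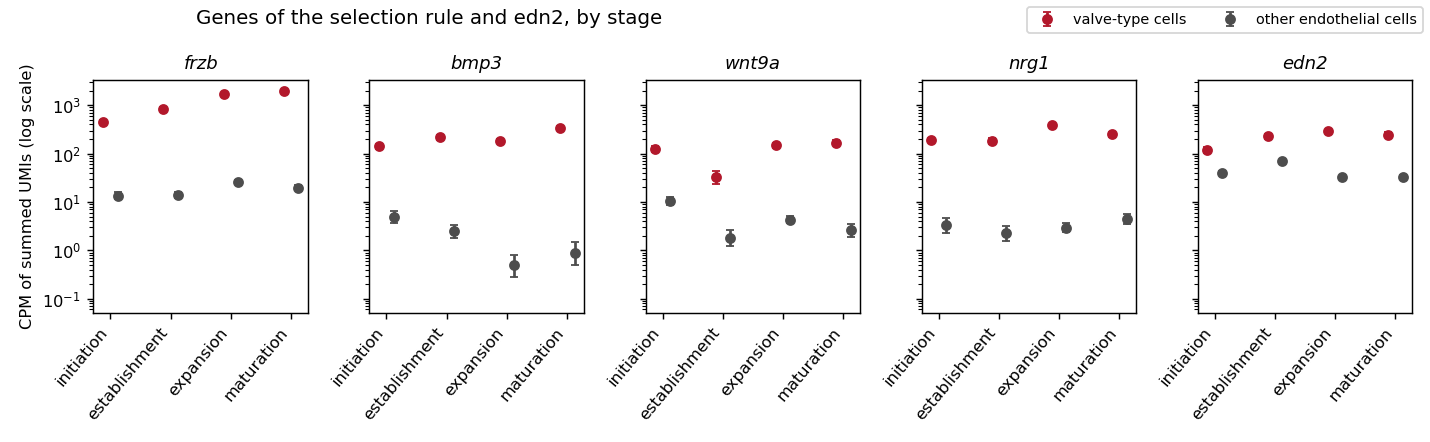
CPM of summed UMIs of frzb, bmp3, wnt9a, nrg1 and edn2 at each stage on a log scale, in valve-type cells and other ECs, with exact Poisson 95% intervals. Valve-type cells lie above other ECs at every stage, which the rule favored for the genes it used. edn2, not used by the rule but named with earlier results of these data known, was at 117 to 289 CPM against 32.9 to 69.3 CPM.

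Endothelin 2 (edn2), a peptide ligand that constricts vessels, was higher in valve-type cells. The rule did not use edn2, but it was named as a marker of these cells with earlier results of these data known. Its test is thus no independent support for the label. edn2 was at 117, 231, 289 and 248 CPM in valve-type cells, against 39.6, 69.3, 32.9 and 33.6 CPM in other ECs. The log2 fold change was 2.14 ± 0.27 (SE) with an adjusted p of 0.00022 in edgeR's quasi-likelihood test with Benjamini-Hochberg adjustment. edn2 was detected in 37.7% of valve-type cells and 9.94% of other ECs, or 24.7% and 5.57% after thinning, against 2.32% of CMs before it. Among the 435 cells it was found in 43.9%, and among the 74 in 1.35%.

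To ask what else set these cells apart, UMIs were summed per library for valve-type cells and for other ECs, and the 4 libraries were compared within pairs. Of 13713 genes tested, 2679 (19.5%) differed at an adjusted p under 0.05, with 1484 (10.8%) higher and 1195 (8.71%) lower in valve-type cells. With the 74 cells left out, and other ECs held to the same limit, 2269 of 13338 genes (17%) differed, with 1196 (8.97%) higher and 1073 (8.04%) lower. The genes were read in the cells that the rule had picked, so the test asks whether cells picked by the 4 genes also differ in others. The median log2 fold change of all genes tested was -0.08, and values with ± below are log2 fold changes with their SE. With the expansion library left out 1705 genes were called, and without pairing by library 837.

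A fixed rule named the 15 genes with the largest rise among the 574 that were called, at least 2-fold higher overall and higher in each library, and at or above 20 CPM in valve-type cells. They were INSM2, wnt7aa, cd9b, has2, pdlim3b, celf5a, stmn4l, nptx1l, rspo2, prp, ptn, pex5la, ptx3a, pdgfaa and chrng, with folds of 105.5 to 22.7. As they were picked for large folds and a rise in each library, their separation from other ECs is no separate result. None of the 15 lost its call in any alternative setting. The 74 cells held at most 3.83% of the UMIs of any of the 15 genes.

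Several of these encode secreted ligands. wnt7aa, a Wnt ligand, was at 35.1, 59.8, 48.5 and 56.6 CPM in valve-type cells, against 0.823, 0.262, 0.283 and 0.420 CPM in other ECs, a log2 fold change of 6.70 ± 0.34 (SE, adjusted p = 2e-06 by edgeR). rspo2, an R-spondin that strengthens Wnt signals at the receptor, was at 33.2, 30.7, 113 and 124 CPM, against 4.21, 0.851, 1.64 and 1.92 CPM in other ECs, a log2 fold change of 4.95 ± 0.47. Both genes were at 4.21 CPM or less in every library of other ECs, and wnt7aa was detected in 72 of the 509 cells and rspo2 in 87. ptn, the heparin-binding growth factor pleiotrophin, was more widespread and was detected in 290 cells. It was at 138, 157, 183 and 164 CPM in valve-type cells, against 13.3, 4.19, 4.44 and 2.82 CPM in other ECs (log2 fold change 4.74 ± 0.37). pdgfaa, a platelet-derived growth factor ligand, was at 6.26, 46.9, 39.2 and 34.8 CPM, against 0.915, 0.589, 1.23 and 1.92 CPM in other ECs (4.52 ± 0.41).

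Genes of the cell surface and the matrix were also among the 15. has2, a hyaluronan synthase that makes the matrix of the embryonic valve cushions, was at 10.6, 14.5, 43.9 and 44.4 CPM in valve-type cells, against 0.183, 0.327, 0.378 and 0.899 CPM in other ECs (log2 fold change 5.84 ± 0.33, adjusted p = 2.7e-06 by edgeR). cd9b, a tetraspanin, was at 44.5, 165, 105 and 51.5 CPM, against 0.915 to 1.31 CPM in other ECs (6.06 ± 0.27). ptx3a, a secreted pentraxin, was at 168, 163, 276 and 154 CPM, against 9.97, 2.23, 5.95 and 13.9 CPM in other ECs (4.55 ± 0.40). has2 was found in 72 valve-type cells, cd9b in 79 and ptx3a in 107, so each was found in a fraction of the cells. chrng, a subunit of the muscle-type acetylcholine receptor, was at 41.3, 59.0, 53.7 and 24.5 CPM, against 2.65, 2.36, 1.76 and 0.480 CPM in other ECs (4.51 ± 0.27).

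The remaining genes act inside the cell or resemble neuronal genes. INSM2, a zinc finger transcription factor, was at 10.6, 39.6, 65.8 and 25.7 CPM in valve-type cells, against 0.732, 0, 0.409 and 0.120 CPM in other ECs (log2 fold change 6.72 ± 0.60, adjusted p = 2.5e-05 by edgeR). celf5a, a CELF-family RNA-binding protein, was at 136, 101, 302 and 233 CPM, against 12.3, 2.23, 3.27 and 2.28 CPM in other ECs (5.34 ± 0.50), and was detected in 206 of the 509 cells. pdlim3b, a PDZ and LIM domain protein of the actin cytoskeleton, was at 36.9, 88.9, 111 and 43.8 CPM, against 1.46, 0.982, 1.26 and 1.92 CPM in other ECs (5.40 ± 0.36). celf5a and ptn were detected in more valve-type cells than any other of the 15 genes. stmn4l, of the stathmin family of microtubule regulators, nptx1l, a neuronal pentraxin, pex5la and prp were at 10.9 to 107 CPM across the 4 libraries, and at 0 to 6.22 CPM in other ECs.

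The 10 genes with the largest fall were hpgd, cd81b, pcdh12, kcnc4, rasl12, aqp8a.1, AL929217.1, megf6a, sfrp5 and cyp1c1, 20.3-fold to 7.58-fold lower in valve-type cells. aqp8a.1, an aquaporin of the endocardium, was at 522, 463, 820 and 248 CPM in valve-type cells, against 2757, 5663, 3798 and 2917 CPM in other ECs (log2 fold change -3.14 ± 0.26). hpgd, which degrades prostaglandins, was at 1.25, 0.808, 2.33 and 1.93 CPM, against 41.1, 50.2, 21.7 and 16.2 CPM in other ECs (-4.34 ± 0.37). cd81b, a tetraspanin like cd9b, was at 1.25, 2.42, 8.87 and 6.44 CPM, against 31.6, 41.6, 85.1 and 61.1 CPM in other ECs (-3.74 ± 0.25), so the 2 tetraspanins moved in opposite directions. kcnc4 and AL929217.1 each lost the call in 1 alternative setting and overlapped between the populations, and the other 8 genes did neither.

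Of 37 tested Wnt pathway genes besides frzb and wnt9a, 14 rose and 4 fell, with a median log2 fold change of 0.45 (13 and 4 of 36 without the 74 cells). Over all genes tested 10.8% rose and 8.71% fell, or 8.97% and 8.04% without the 74 cells, and these shares are the background for each list that follows. The lists were written with earlier results of these data known. Their counts here and below are thus a description and no independent support for the label. Among the transcriptional targets and feedback regulators of Wnt signaling, sp5a, lef1, nkd1, axin2 and znrf3 rose. lef1, a transcription factor that carries out the Wnt response, was at 63.9, 76.0, 119 and 68.9 CPM in valve-type cells, against 11.2, 11.7, 13.4 and 6.53 CPM in other ECs (log2 fold change 2.74 ± 0.19, adjusted p = 6.8e-06 by edgeR). axin2, which dampens the pathway, was at 25.7, 20.2, 35.9 and 32.8 CPM, against 9.97, 4.98, 7.59 and 5.69 CPM (1.85 ± 0.23). sp5a, at 1.88 to 13.5 CPM in valve-type cells and at most 0.252 CPM in other ECs, had the largest fold of the list (5.03 ± 0.48), which did not hold wnt7aa.

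Secreted Wnt inhibitors were split. sfrp2 was at 6.26, 13.7, 31.7 and 18.0 CPM in valve-type cells, against 2.84, 1.11, 0.472 and 0.420 CPM in other ECs (log2 fold change 3.92 ± 0.67), and none of its UMIs came from the 74 cells. sfrp5, of the same family, was lower, at 8.14, 2.42, 9.33 and 9.01 CPM, against 15.1, 75.0, 58.0 and 76.3 CPM (-2.95 ± 0.40). sfrp1a and dkk3b rose by 3.06 ± 0.22 and 2.60 ± 0.17, but the 74 cells held 70.2% and 74.8% of their UMIs, and without them the values were 2.15 and 1.42, both still called. The receptor genes fzd1 and fzd3a fell, and fzd7a (1.21 ± 0.25) was not called without the 74 cells.

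**Figure D4:**
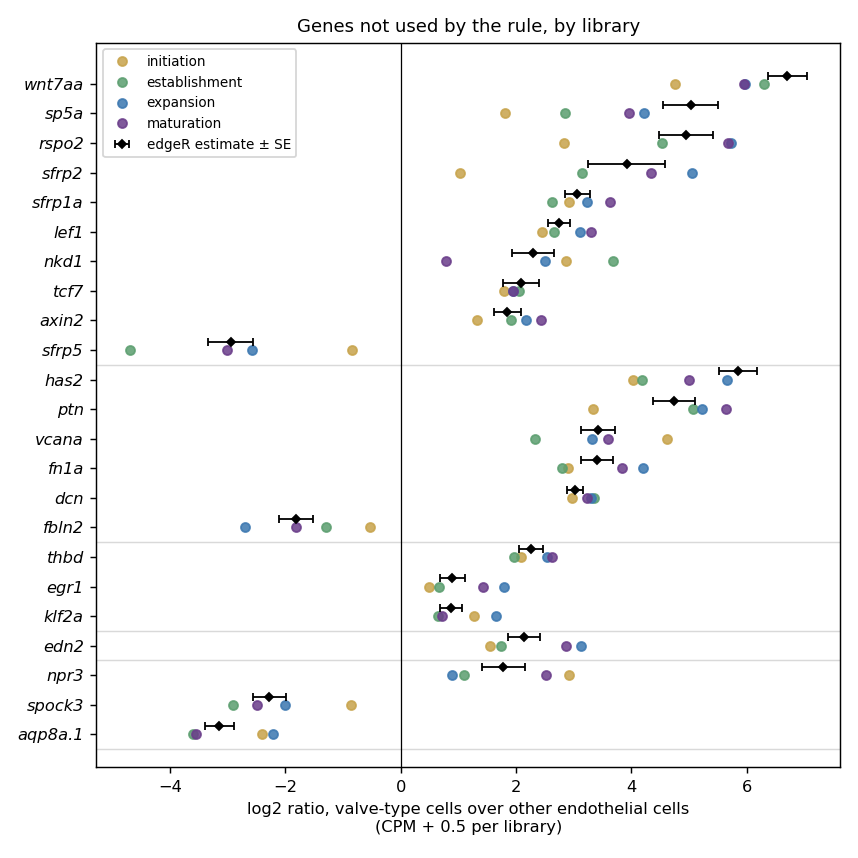
Log2 ratio of valve-type cells over other ECs for genes that the rule did not use, with 0.5 CPM added, 1 point per library, and the edgeR estimate with its SE as a black diamond. Genes are grouped from top to bottom as Wnt pathway, matrix, flow response, edn2 and endocardium, and all 4 points of each gene lie on the same side of 0. The genes were picked from those already called, so this agreement is no separate result. Of the 4 Wnt genes that fell, sfrp5 alone is drawn, and npr3 was not called without the 74 cells.

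Matrix genes had the largest median of the 11 pathway lists. Of 43 tested, 26 rose and 4 fell, with a median log2 fold change of 1.19 (22 and 6 of 41 without the 74 cells), against 10.8% and 8.71% of all genes. dcn, the proteoglycan decorin, was at 255, 746, 886 and 893 CPM in valve-type cells, against 32.2, 72.9, 89.1 and 94.2 CPM in other ECs (3.02 ± 0.14, adjusted p = 1e-06 by edgeR) and was detected in 80.4% and 22.1% of cells. vcana, the hyaluronan-binding proteoglycan versican, was at 153, 22.6, 93.8 and 116 CPM, against 5.76, 4.12, 8.94 and 9.11 CPM (3.43 ± 0.29). dcn and vcana thus encode proteoglycans and has2 a hyaluronan synthase, and whether the same cells held all 3 was not tested. fn1b (2.86 ± 0.16), mdkb (2.80 ± 0.26) and postnb (3.03 ± 0.20) drew 68.9%, 83.6% and 83.0% of their UMIs from the 74 cells, and without them mdkb (0.63) and postnb (1.13) were not called. fbln2, ogna, loxl1 and col4a1 fell, with fbln2 at -1.82 ± 0.30 and at -3.02 without the 74 cells.

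Of 48 BMP and TGFβ genes besides bmp3, 14 rose and 2 fell, with a median log2 fold change of 0.29 (15 and 2 of 47 without the 74 cells), against 10.8% and 8.71% of all genes. The ligand bmp4 was at 11.3, 8.08, 12.6 and 27.7 CPM in valve-type cells, against 1.46, 0.131, 0.944 and 1.50 CPM in other ECs (3.72 ± 0.38). The ligand bmp6 was at 128, 75.1, 139 and 249 CPM, against 36.5, 24.5, 33.6 and 31.9 CPM (1.92 ± 0.22, adjusted p = 0.00012 by edgeR). bmp10, a ligand of the endocardium and trabecular myocardium, was lower, at 11.3, 3.23, 11.2 and 5.15 CPM, against 48.2, 22.2, 44.9 and 26.9 CPM (-2.41 ± 0.21). The intracellular genes smad6a, smad6b and smad9 rose by 1.48, 1.37 and 1.11 on the log2 scale. The targets id1 (0.42 ± 0.25) and id2b (0.23 ± 0.14) were not called over the 509 cells, though id2b was over the 435 (0.50), and id2a (1.77 ± 0.16), with 43.8% of its UMIs from the 74 cells, rose in both cases.

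Of 18 Notch genes, 7 rose and 4 fell (7 and 3 without the 74 cells), against 10.8% and 8.71% of all genes. The ligand jag1a was at 5.64, 4.04, 14.0 and 18.7 CPM in valve-type cells, against 1.19, 0.589, 1.16 and 1.26 CPM in other ECs (log2 fold change 3.08 ± 0.37), and the target her9 at 420, 631, 414 and 265 CPM, against 131, 122, 76.2 and 77.6 CPM (1.86 ± 0.17). The ligand dll4 fell (-0.76 ± 0.14), and the receptor notch1b, a valve marker of the embryo, was at 555 to 1509 CPM in valve-type cells and 593 to 1254 CPM in other ECs and was not called (-0.15 ± 0.16). Of 19 flow genes, 6 rose and 1 fell (8 and 1 without the 74 cells). klf2a, the flow-responsive factor, was at 246, 310, 380 and 266 CPM, against 101, 198, 121 and 161 CPM (0.87 ± 0.18, adjusted p = 0.0063 by edgeR), and thbd, the anticoagulant receptor thrombomodulin, at 49.5, 8.89, 32.7 and 32.2 CPM, against 11.2, 1.90, 5.23 and 4.80 CPM (2.26 ± 0.21). klf2b (0.27 ± 0.16), klf4 (0.28 ± 0.15) and nfatc1 (0.38 ± 0.15) were not called over the 509 cells, and without the 74 cells klf2b (0.58) and nfatc1 (0.54) were.

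Of 35 transcription factors of valve and endothelial development, 12 rose and 7 fell (13 and 6 without the 74 cells), against 10.8% and 8.71% of all genes. Those that rose included zeb2b (3.57 ± 0.31) and tbx2a (3.79 ± 0.33), sox9a (2.96 ± 0.22) and tbx20 (2.81 ± 0.20), the last 3 known from the endocardial cushions. tbx20 was at 133, 42.0, 107 and 77.2 CPM in valve-type cells, against 20.4, 7.07, 9.57 and 8.45 CPM in other ECs, and sox9a at 21.3, 35.6, 61.6 and 43.8 CPM, against 3.48, 3.47, 5.04 and 5.81 CPM. Those that fell included the endothelial factors erg (-1.15 ± 0.15), sox18 (-1.04 ± 0.22) and fli1a (-0.77 ± 0.15), all of which also fell without the 74 cells, by 0.84, 0.73 and 0.46 on the log2 scale. Other ECs had passed a stricter endothelial clause than valve-type cells in both cases. snai2 (1.30 ± 0.29) was not called without the 74 cells.

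Among ligands and receptors of other pathways, egfra, the EGF receptor, rose by 2.01 ± 0.18, and 4 of 9 EGF-family genes besides nrg1 rose and 1 fell (3 and 2 of 8 without the 74 cells). nrg2a, the neuregulin that fell, was at 128, 54.1, 190 and 138 CPM in valve-type cells, against 198, 142, 258 and 262 CPM in other ECs (-1.03 ± 0.17). The rule selected for nrg1, so the 2 genes cannot be compared. Of 10 endothelin and adrenomedullin genes, 3 rose and 1 fell, and edn2 alone remained called without the 74 cells. Of 15 hemostasis genes, 6 rose and 3 fell (6 and 2 without the 74 cells), with anxa5b the highest (2.32 ± 0.34). f3b (1.13 ± 0.17), the tissue factor gene, drew 74.8% of its UMIs from the 74 cells and was at -0.53 without them. Of 32 guidance genes, 11 rose and 9 fell (10 and 8 of 31 without the 74 cells), with slit3 (2.22 ± 0.24) among the first and sema3ab (-1.96 ± 0.17) among the second. Of 8 VEGF genes, 2 rose and 2 fell (1 and 1 without the 74 cells), and the ligand vegfd (2.43 ± 0.22) was not called without the 74 cells. Beside the 10.8% of all genes that rose and the 8.71% that fell, lists of 8 to 10 genes with 1 or 2 calls in a direction lie near the background.

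Markers of the chamber endocardium were mostly lower. Of 7 endocardial markers, aqp8a.1, spock3, epas1b and nppc fell with and without the 74 cells. npr3 rose over the 509 cells, with 63.7% of its UMIs from the 74, and was not called without them (0.86), whereas nfatc1 was called only without them (0.54). spock3 was at 535, 217, 525 and 893 CPM in valve-type cells, against 978, 1635, 2103 and 5052 CPM in other ECs (log2 fold change -2.28 ± 0.28). Of 11 tested markers of valve endothelium, has2, alcama, fn1b, klf2a and crip2 rose and dll4 fell, and without the 74 cells 7 rose and 1 fell. alcama, an adhesion molecule of valve endothelium, was at 401, 264, 381 and 153 CPM, against 63.7, 13.7, 16.0 and 8.99 CPM (3.69 ± 0.30). Of 7 coronary markers, tppp3 (2.65 ± 0.31), cx34.4 (2.08 ± 0.36) and aplnra (1.09 ± 0.15) rose and aplnrb (-2.05 ± 0.27) fell, and the same numbers held for 6 tested without the 74 cells. Of the 11 pan-endothelial genes none rose and plvapb, tek, erg, fli1a and egfl7 fell, and without the 74 cells, a split made on these genes, 2 rose and 4 fell. In both cases the endothelial clause was looser for valve-type cells than for other ECs. Of 5 pericyte markers, pdgfrb (1.36 ± 0.26) and notch3 (1.17 ± 0.26) rose, and without the 74 cells, which held 71.7% of the UMIs of pdgfrb, notch3 alone did. All 6 epicardial markers rose over the 509 cells and 1 of 6, tbx18, over the 435. CM genes fell in 4 of 5 tested and red cell genes in 2 of 6, and the summed level of 8 CM markers was 112 to 3086 CPM by stage in valve-type cells, against 178 to 5688 CPM in other ECs.

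The population closest to the valve-type cells was taken to be ECs with at least 3 UMIs from at least 2 of the genes adgrg6, cldn5a and cpamd8. These were 201 of the other ECs, numbering 107, 29, 53 and 12 in the order of the stages, and 80 valve-type cells met this rule too and stayed with the valve-type cells. Of 8172 genes tested, 486 (5.95%) differed, with 343 (4.2%) higher and 143 (1.75%) lower in valve-type cells. Without cells below the pan-endothelial limit, 283 of 7167 (3.95%) differed, with 190 (2.65%) higher and 93 (1.3%) lower. With 1 library left out, 203 (without expansion), 216 (without establishment), 264 (without initiation) or 625 (without maturation) genes were called, and without pairing by library 99.

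The 8 named genes that rose were all among the 15 of the first comparison. has2 had 198 UMIs and stmn4l 157 UMIs in valve-type cells and none in the adgrg6 ECs, which makes them at least 29.6-fold and 23.5-fold higher against a floor of 3 counts over the 4 libraries. wnt7aa was at 35.1 to 59.8 CPM in valve-type cells, against 0.562, 0, 0 and 0 CPM in adgrg6 ECs (log2 fold change 6.54 ± 0.55, adjusted p = 0.00016 by edgeR). prp, cd9b, INSM2, pdlim3b and nptx1l completed the list, with folds of 66.9 to 24.7. rspo2, named only in the first comparison, was at 33.2, 30.7, 113 and 124 CPM, against 3.94, 2.00, 0 and 14.3 CPM in adgrg6 ECs (3.84 ± 0.48). Each of the 8 named genes was at 5.87 CPM or less in every library of the adgrg6 ECs, with at most 3 UMIs in any of them. At maturation the adgrg6 ECs were 12 cells with 140290 UMIs in sum, and held 0 UMIs of the 8 genes. The folds thus rest on few counts and do not show that the genes were absent.

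Other genes were also present in the adgrg6 ECs. ptn was at 138 to 183 CPM in valve-type cells, against 55.1, 28.0, 62.6 and 28.5 CPM in adgrg6 ECs (1.76 ± 0.27), well above its 2.82 to 13.3 CPM in all other ECs. alcama (1.59 ± 0.30) was at 401, 264, 381 and 153 CPM in valve-type cells, against 213, 58.1, 135 and 14.3 CPM in adgrg6 ECs, was detected in 46.2% and 44.8% of cells, and lost its call in 3 settings. edn2 was at 117, 231, 289 and 248 CPM, against 79.3, 80.1, 209 and 92.7 CPM in adgrg6 ECs, and was not called (0.90 ± 0.24, adjusted p = 0.056 by edgeR), though it was without cells below the pan-endothelial limit (1.20, adjusted p = 0.02).

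The named genes that fell were cd81b, esm1, cyp1c1, cyp1a and tnfaip2b. cyp1a and cyp1c1, cytochrome P450 genes induced through the aryl hydrocarbon receptor, were at 306, 36.4, 46.2 and 65.7 CPM and at 115, 32.3, 87.3 and 76.0 CPM in valve-type cells, against 1043, 148, 1003 and 143 CPM and 724, 292, 804 and 143 CPM in adgrg6 ECs (log2 fold changes -2.41 ± 0.46 and -2.62 ± 0.35). cyp1c1 kept its call in every setting, and the other 4 lost it in 1 to 3 settings. One cell held 110 of the 735 UMIs of cyp1a in valve-type cells.

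Of the matrix list, 15 of 33 tested genes rose and 1 fell against the adgrg6 ECs, with a median log2 fold change of 0.83 beside 0.01 for all genes (8 and 2 of 31 without cells below the limit). Over all genes tested 4.2% rose and 1.75% fell, or 2.65% and 1.3% without those cells. vcana (3.68 ± 0.37), dcn (2.91 ± 0.25) and matn4 (2.35 ± 0.28) were called in both cases. Of 25 Wnt genes, rspo2, sfrp1a, znrf3 and dkk3b rose and sfrp5 fell, and sfrp1a and dkk3b, at 0.45 and -0.23, were not called without cells below the limit. Of 27 guidance genes, 6 rose and 3 fell, and the count was the same without cells below the limit. slit3, unc5b and ntn1a were among the 6, and robo4 and sema3ab among the 3. Of 14 Notch genes 0 rose and 1 fell, with and without cells below the limit. Of 18 flow genes 1 rose and 2 fell (3 and 0 without those cells). Of 29 transcription factors 4 rose and 1 fell (2 and 0 of 27 without those cells). jag1a, her9, klf2a, thbd and tbx2a were not among the genes called over all valve-type cells. Of 40 BMP and TGFβ genes id2b alone was called (0.85 ± 0.20), and of 6 epicardial markers 5 rose over all valve-type cells and 0 without cells below the limit.

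Maturation and initiation were set side by side within the valve-type cells, as a description of 2 libraries with no test. Of 9263 genes with at least 20 UMIs over both, 1699 (18.3%) were at least 2-fold apart with exact Poisson intervals that did not overlap, 728 (7.86%) higher and 971 (10.5%) lower at maturation. In other ECs the same rule took 5971 of 16904 genes (35.3%), from far more UMIs. Of the 1699 genes, 1131 (66.6%) passed in the same direction in other ECs. The median log2 ratio over all genes was -0.10 in valve-type cells.

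Many of the largest ratios belonged to genes of CMs and red cells. myl7, a CM myosin light chain, was at 20.7, 725, 958 and 1688 CPM in valve-type cells (81.7-fold higher at maturation than at initiation), at 3170 CPM at maturation and 57.2 CPM at initiation in other ECs, and at 12595 CPM at maturation and 3838 CPM at initiation in low-UMI barcodes. hbba1, a globin, was at 9552, 29086, 33.6 and 58.6 CPM in valve-type cells (163-fold lower at maturation) and at 579 CPM at maturation and 139700 CPM at initiation in low-UMI barcodes. acta1b, gapdh, cmlc1 and tnnc1a were higher and hbaa1, cahz and slc4a1a lower at maturation in valve-type cells and in other ECs, and moved the same way in low-UMI barcodes. After subtraction of the profile of the low-UMI barcodes, a setting chosen after the data were seen, all 9 genes still passed. The log2 ratio of acta1b was then 4.79 in place of 7.09, that of myl7 6.85 in place of 6.35, and that of hbba1 -8.31 in place of -7.35.

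Of the other named genes, adgrg6, an adhesion G protein-coupled receptor, was at 597, 29.9, 145 and 7.72 CPM (77.3-fold lower at maturation, 95% interval 44.0 to 150), with 12 UMIs from 7 cells at maturation and 953 from 33 cells at initiation, 198 of them from 1 cell. Its log2 ratio was -6.27, and -4.54 among cells with at most 20000 UMIs. ntm, a neural adhesion molecule, was at 67.0, 18.6, 74.2 and 0 CPM, at least 34.7-fold lower at maturation with 3 counts as the floor. As a log2 ratio this bound was -5.12, or -4.03 among cells with at most 20000 UMIs. adgrg6 and ntm were also lower at maturation in other ECs. atp1a3b, a subunit of the sodium pump, was at 51.5 CPM at maturation and 0.626 CPM (1 UMI) at initiation, 82.2-fold apart with an interval of 14.3 to 3288. Its log2 ratio was 6.36, 3.75 among cells with at most 20000 UMIs and 4.81 without the 74 cells. znf1104, lower at maturation (-4.37), did not pass among cells with at most 20000 UMIs. 3 named genes rested on few cells, with 124 of 126 UMIs of ccl35.1 and 55 of 100 of npb from 1 cell at maturation, and 75 of 93 of thsd7ba from 1 cell at initiation. None of these 3 passed without the 74 cells.

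Within the pathways of the valve-type cells, Wnt genes differed between the stages in 9 of 28 tested, 7 higher and 2 lower at maturation, beside 7.86% higher and 10.5% lower of all genes. rspo2 was 3.72-fold higher (33.2 and 30.7 CPM at the first 2 stages, 113 and 124 at the last 2), whereas in other ECs it was at 1.92 CPM at maturation and 4.21 CPM at initiation. rspo2 was detected in 23 cells at maturation and 22 at initiation, and 1 cell held 52 of its 192 UMIs at maturation. The log2 ratio of rspo2 was 1.90, and 1.03 among cells with at most 20000 UMIs. znrf3 was at 61.4, 44.4, 160 and 237 CPM (3.86-fold higher) and nkd1 at 185, 77.6, 87.3 and 59.9 CPM (3.09-fold lower). edn2 was 2.12-fold higher at maturation in valve-type cells, and in other ECs it was at 33.6 CPM at maturation and 39.6 CPM at initiation.

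Of 38 matrix genes, 7 were higher and 4 lower at maturation, with has2 4.17-fold and dcn 3.51-fold higher, and the 4 lie near the 10.5% of all genes that were lower. In other ECs has2 was at 0.183 CPM at initiation, from 2 UMIs, and at 0.899 CPM at maturation. dcn was also higher at maturation than at initiation in other ECs. Of 32 transcription factors, 6 were higher and 1 lower, with tbx2a at 10.0, 5.66, 18.2 and 52.1 CPM (5.20-fold higher, a log2 ratio of 2.38, or 4.41 without the 74 cells and 3.99 among cells with at most 20000 UMIs). Of 19 flow genes none was higher and 4 were lower, among them cyp1b1 at 1211, 486, 652 and 105 CPM (11.5-fold lower), while klf2a was within 1.08-fold. Of 17 Notch genes, jag1a was higher (3.31-fold) and her6, hey1 and jag2a lower, hey1 did not pass without the 74 cells, and jag1a and jag2a did not pass among cells with at most 20000 UMIs. Of 43 BMP and TGFβ genes, bmp4, id2a, id2b and smad1 were higher and none lower, close to the 7.86% of all genes that were higher and below the 10.5% that were lower, and bmp4 did not pass among cells with at most 20000 UMIs.

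Among the 435 cells, 121 carried nrg1 without wnt9a and 136 wnt9a without nrg1, and these groups were described after their values had been seen. The nrg1 cells numbered 12, 20, 57 and 32 and the wnt9a cells 38, 17, 52 and 29 by stage. syt7b, a calcium sensor of exocytosis, had 77 UMIs in the nrg1 cells and 1 in the wnt9a cells. vcana was at 113, 35.6, 132 and 68.6 CPM in the nrg1 cells, against 7.40, 3.29, 7.33 and 8.01 CPM in the wnt9a cells, and ptx3a was at 1207, 499, 514 and 301 CPM, against 8.88, 9.88, 44.0 and 180 CPM. vcana and ptx3a also stood out in the valve-type cells as a whole. egr3, a transcription factor induced by stimulation, was at 125 to 360 CPM in the nrg1 cells against 16.5 to 42.2 CPM in the wnt9a cells. syt7b, vcana, ptx3a and egr3 were picked because they lay on the nrg1 side in each library.

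On the wnt9a side, the ligand dhh (desert hedgehog) was at 25.0, 11.9, 23.2 and 4.43 CPM in the nrg1 cells, against 65.1, 62.6, 112 and 384 CPM in the wnt9a cells. runx2a, a transcription factor known for bone formation, was at 0, 0, 8.93 and 15.5 CPM in the nrg1 cells, against 75.5, 26.3, 42.2 and 80.1 CPM in the wnt9a cells. nol4lb and RASSF5 were also lower in the nrg1 cells in all 4 libraries, by 9.32-fold and 4.21-fold. edn2 was at 281, 329, 327 and 339 CPM in the nrg1 cells, against 90.3, 69.1, 165 and 200 CPM in the wnt9a cells. Except for edn2, the genes given for the 2 groups were picked as the largest ratios among those on the same side in all 4 libraries. Their separation was thus a condition of being named, and no test was made.

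Some cells carried both genes. Among ECs with frzb and bmp3, 47 of 302 carried both nrg1 and wnt9a, 61 nrg1 alone, 78 wnt9a alone and 116 neither. In the order of the stages, wnt9a was found in 76.9%, 29.4%, 42.2% and 39.4% of those with nrg1, against 58.6%, 32.6%, 31.3% and 47.3% of those without. The cells with nrg1 were deeper at each stage, with a median of 22439, 9937, 11369 and 12938 UMIs, against 8327, 8340, 6738 and 7181 UMIs in those without.

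**Figure D5:**
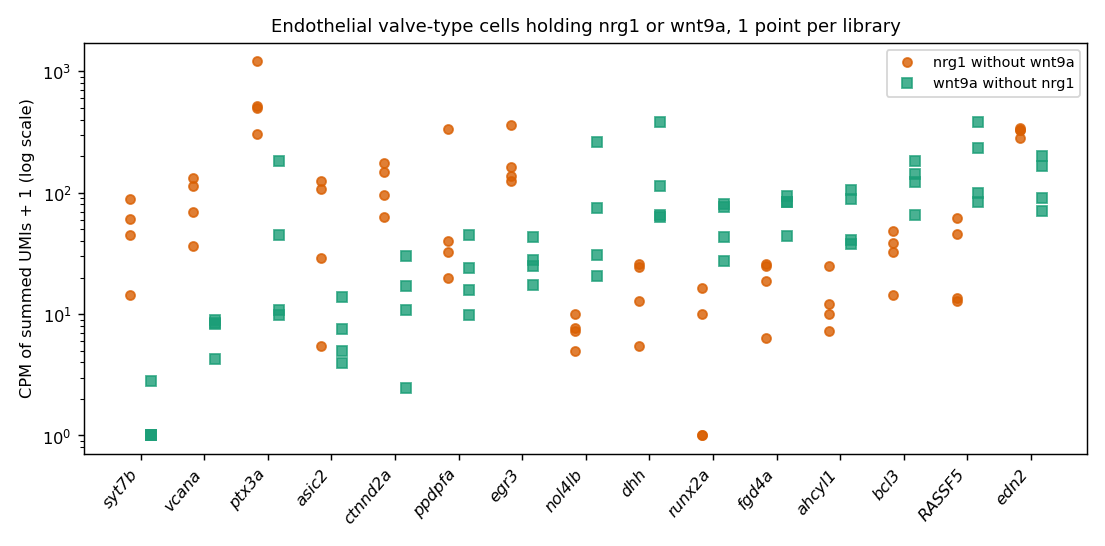
CPM of summed UMIs, plus 1 on a log scale, of 7 genes higher in cells with nrg1 and without wnt9a, 7 genes higher in cells with wnt9a and without nrg1, and edn2, with 1 point per library and group. The genes were picked for their difference, and syt7b, at 13.3 to 87.5 CPM against 0 to 1.83 CPM, shows the widest gap.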

How the data were processed

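Single-cell RNA-seq libraries (10x Genomics 3' kit) were made from 1 pool of ventricles per stage. Per the labels, the authors used Cell Ranger 6.1.2, Seurat 4 and the GRCz11 build, while the headers of the matrices name Cell Ranger 7.1.0. The deposited values are raw UMI counts for 36351 genes and all barcodes, with no normalization and no selection of cells. The members and gene lists were chosen with earlier results of these data known.

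Counts were summed per library and population and tested in edgeR 4.0.16 (R 4.3.3; TMM factors, filterByExpr, quasi-likelihood test, library as a block because both populations come from the same 4 libraries, Benjamini-Hochberg adjustment, threshold 0.05). The genes of the rule stayed in the fits but carry no test. The 4 libraries, 1 per stage, served as the replicates. With library as a block, the p-values measure only how the difference between populations varied across these 4 pools. Stage and pool cannot be told apart in that spread. Tested on simulated data, the comparison with other ECs recovered 56.2% of 2-fold and 91.4% of 4-fold changes among 13128 genes, and that with adgrg6 ECs 29% and 95.5% among 7896 genes. Stages were compared by CPM with exact Poisson intervals (95%; 3 counts as the floor for a 0). Intervals cover counting error only. Doublets were scored in scanpy 1.11.5 (0.8% of cells per 1000), and low-UMI barcodes were those ranked 45001 to 90000 by UMIs. No cell was removed for either. Genes were named by fixed rules on fold, level and agreement of all libraries (15 up and 10 down, then 8 and 5, then 8 in each direction), leaving out clone-type names. Alternatives covered DESeq2 1.42.0, filters, gates, depth, doublets and left-out libraries. No genome or sequence was used.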

Additional observations from a re-analysis of the deposited data

Results flagged for a closer look

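rspo2 and pex5la moved in opposite directions between the stages in valve-type cells and in other ECs. The log2 ratio of maturation over initiation of rspo2 was 1.90 in valve-type cells and -1.13 in other ECs, and that of pex5la was 1.92 and -1.24. Among cells with at most 20000 UMIs pex5la did not pass. Each ratio compares 1 library with 1 other, so the difference was not tested.

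Outside the selection, 73 further barcodes met every clause but held no UMI of cdh5, kdrl, f8 or fabp11a. Of these, 71 had fewer than 2 pan-endothelial UMIs per 10000, 52 carried tcf21 and 66 carried frzb. They resembled the 74 cells among the 509 that had few endothelial transcripts.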

How the results depend on the processing

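The first tally covers tests of single genes, stage ratios of named genes, and the numbers of genes higher and lower in each comparison. Over all alternatives, 2956 of these values stayed the same. For a test this meant the same direction and side of the threshold, and for the rest a value close to the reported one. Of the tests, 483 kept the direction and lost the call, and 4 gained it. A further 31 values, all numbers of genes or stage ratios, moved, and 11 values reversed. Of the other counts and shares, 54 stayed close to the reported value and 19 moved. The number of valve-type cells was 212 when at least 3 of the 4 genes had to be detected, and 338 after thinning to 2500 UMIs. The share of ECs was 6.28% at initiation among cells with at most 20000 UMIs, 4.44% at expansion among cells with at least 4000 UMIs and 3.72% at maturation with the pan-endothelial limit, a setting chosen after seeing the data. Thinning gave 3.42%, 2.08%, 2.51% and 2.59% in the order of the stages. The genes called against other ECs numbered 4084 with no filter on low counts and 1705 to 2659 with 1 library left out, the fewest without expansion. Those against adgrg6 ECs numbered 830 with no filter, 320 with at most 20000 UMIs, 283 with the pan-endothelial limit and 203 to 625 with 1 library left out (264 without initiation, 216 without establishment, 203 without expansion and 625 without maturation). DESeq2 called 2555 and 457. The cause of these differences was not tested.

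Both populations come from the same 4 libraries, which the tests used as a pairing. With no replicate block, 837 genes were called against other ECs (631 higher and 206 lower) and 99 against adgrg6 ECs (87 higher and 12 lower).

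Values that reversed against other ECs were f3b (-0.0518 with the stricter endothelial gate and -0.53 with the pan-endothelial limit), col12a1a (-0.0539) and pdgfrb (-0.0744), both with the limit. Against adgrg6 ECs they were tcf21 (-0.23 with the stricter gate and -0.70 with the limit), dkk3b (-0.23), f3b (-0.54), postnb (-0.28), vegfd (-0.56) and wt1b (-0.39), all with the limit. Between the stages, 1699 genes of the valve-type cells passed, 1355 among cells with at most 20000 UMIs (431 higher and 924 lower at maturation), 2024 without the 74 cells (847 and 1177), 1632 after subtraction of low-UMI barcodes (813 and 819, chosen after seeing the data) and 1666 with TMM scaling (797 and 869). The summed depth was 6530780 UMIs in valve-type cells and 2929561 in adgrg6 ECs.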
